A study of Homo sapiens with 12 samples.

Results

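The genes described here are the heat shock chaperones and their co-chaperones, a list of 38 genes that holds the HSP110, HSP70, HSP90, HSP40 and small HSP families, the helpers of HSP90 and HSP70, and heat shock factors. Members were found as probe sets whose annotation gives the symbol of a listed gene and no other symbol. This left 33 genes with 79 probe sets, out of 19775 genes and 54613 probe sets tested. HSPA1A, HSPA1B, HSPA8, AHSA1 and HSF2 had no probe set of their symbol alone and were not analysed here. The list is called cytosolic, but HSPD1, HSPE1 and HSPA9 encode mitochondrial chaperones and HSPA13 encodes a microsomal one, so the name does not cover all of its members.

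Chaperones bind unfolded stretches of other proteins and release them so that they can fold. HSP70 proteins receive their clients from HSP40 proteins (the DNAJ genes) and let go of them with the help of nucleotide exchange factors such as HSP110 and the BAG proteins, and HSP90 finishes kinases and steroid receptors together with co-chaperones. Unfolded protein frees the transcription factor HSF1, which binds inverted repeats of the bases GAA, the heat shock element, and raises transcription of many of these genes.

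Hep3B is a hepatocellular carcinoma line that the study calls sensitive to DAAD2, and SNU449 is a poorly differentiated one that it calls resistant. DAAD2 is dehydroabietylamine, a diterpene amine, that carries N-acetyl-L-cysteine. Hep3B cells received 2 μM DAAD2 and SNU449 cells 20 μM DAAD2 for 72 h, and controls of each line received 0.1% DMSO as vehicle. The paper states, for its cytotoxicity screen, that compound stocks were made in DMSO and diluted in medium. The labels do not give the DMSO content of the DAAD2-treated cells. If it did not match that of the controls, the vehicle and DAAD2 cannot be told apart. RNA was hybridised to 12 Affymetrix U133 Plus 2.0 arrays, 3 for each of the 4 groups. Levels are on the log2 scale of RMA, as deposited by the authors, so a difference of 1 is a doubling. The lines differ also in dose, so that line and dose cannot be told apart in any comparison between the responses. Each group is a single line in culture. The sources do not say whether arrays of 1 group had separate cultures behind them, and p-values may thus cover technical spread alone.

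The lines carried their marker genes. APOA1, a liver apolipoprotein, had a mean log2 level of 11.64 in Hep3B controls and 4.86 in SNU449 controls, and the collagen gene COL1A2 one of 3.89 and 11.08. All 4 liver markers (ALB, AFP, APOA1 and TTR) were higher in Hep3B and all 3 mesenchymal markers (VIM, COL1A2 and CDH2) higher in SNU449, though CDH2 by little, at 7.84 and 8.24. Of the 3 leukocyte markers with a probe set, PTPRC was at 3.23 and 3.21 and CD3E at 4.35 and 4.95 in the Hep3B and SNU449 controls. LYZ, the lysozyme gene, was at 12.14 in Hep3B controls, 11.54 in Hep3B after DAAD2 and 3.06 in SNU449 controls, and its part in the results was not tested. Median levels per array lay between 3.71 and 3.85. Among SNU449 arrays, replicate 2 of DAAD2-treated cells stood apart in RNA integrity, with a GAPDH 3′ signal 1.99 log2 units above the 5′ signal. The other 5 SNU449 arrays were at 0.34 to 0.97. Among Hep3B arrays, replicate 1 of the controls was highest at 1.51, against 0.45 to 1.05 on the others. By ACTB, the 3′ excess was largest on replicate 3 of DAAD2-treated Hep3B, at 3.27, and was 3.04 on replicate 2 of DAAD2-treated SNU449.

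RefSeq promoter windows on GRCh38.p14, which run from 250 bases before to 50 bases after an annotated start, were found for 27 of the 33 genes (39 windows). The 200 bases before the start are printed for 6 genes. These lead the differences in Hep3B or, as HSP90AB1, carry 2 runs of repeats. Of a gene with several annotated starts, the window with the most repeats is shown. Sequences read 5′ to 3′ on the strand of the gene. Capitals mark each inverted GAA pair, GAANNTTC or TTCNNGAA, that lies whole within the printed bases. Such a pair reads the same on both strands. Neighbouring pairs share 3 bases, and overlapping pairs form 1 run of capitals.
CHORDC1 (chr11:90223050-90223249, minus strand): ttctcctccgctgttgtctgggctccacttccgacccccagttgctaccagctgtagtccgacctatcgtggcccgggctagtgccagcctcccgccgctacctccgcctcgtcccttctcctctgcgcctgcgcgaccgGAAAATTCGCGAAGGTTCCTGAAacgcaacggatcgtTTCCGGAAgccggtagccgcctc
HSP90AA1 (chr14:102087045-102087244, minus strand): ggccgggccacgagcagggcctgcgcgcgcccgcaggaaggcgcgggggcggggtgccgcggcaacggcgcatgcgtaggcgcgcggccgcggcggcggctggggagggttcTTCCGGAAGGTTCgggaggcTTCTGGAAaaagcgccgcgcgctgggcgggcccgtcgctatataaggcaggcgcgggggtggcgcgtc
HSP90AB1 (chr6:44247743-44247942, plus strand): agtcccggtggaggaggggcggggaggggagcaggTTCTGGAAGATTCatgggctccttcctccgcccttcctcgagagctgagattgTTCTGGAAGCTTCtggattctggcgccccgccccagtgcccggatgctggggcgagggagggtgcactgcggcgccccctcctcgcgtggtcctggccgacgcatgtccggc
HSPA4L (chr4:127782122-127782321, plus strand): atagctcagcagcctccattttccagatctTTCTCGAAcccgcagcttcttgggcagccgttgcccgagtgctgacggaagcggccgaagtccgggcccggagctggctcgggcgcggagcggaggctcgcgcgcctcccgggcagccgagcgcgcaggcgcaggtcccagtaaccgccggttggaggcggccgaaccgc
HSPH1 (chr13:31162389-31162588, minus strand): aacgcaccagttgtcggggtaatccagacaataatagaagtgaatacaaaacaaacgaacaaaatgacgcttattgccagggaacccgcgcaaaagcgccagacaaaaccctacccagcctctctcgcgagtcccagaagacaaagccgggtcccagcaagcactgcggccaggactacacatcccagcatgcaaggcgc
BAG3 (chr10:119651180-119651379, plus strand): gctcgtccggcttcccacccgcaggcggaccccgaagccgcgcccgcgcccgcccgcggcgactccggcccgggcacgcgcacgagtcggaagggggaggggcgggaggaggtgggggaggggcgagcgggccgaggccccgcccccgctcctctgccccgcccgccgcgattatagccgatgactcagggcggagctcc

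CHORDC1 had the densest run of repeats of these 6, with 4 overlapping pairs ending 38 bases before its start and a further pair nearer to it. Another CHORDC1 pair, at -205 to -198 from the start, is cut by the printed stretch and stays in lower case. HSP90AB1 had 2 runs of 3 units each (GAANNTTCNNGAA or TTCNNGAANNTTC), and HSP90AA1 had 1 such run and 1 separate pair. The window of HSPA4L held 1 pair, and no pair stands in those of HSPH1 and BAG3, which says only that these letters are not in these windows.

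**Figure D1:**
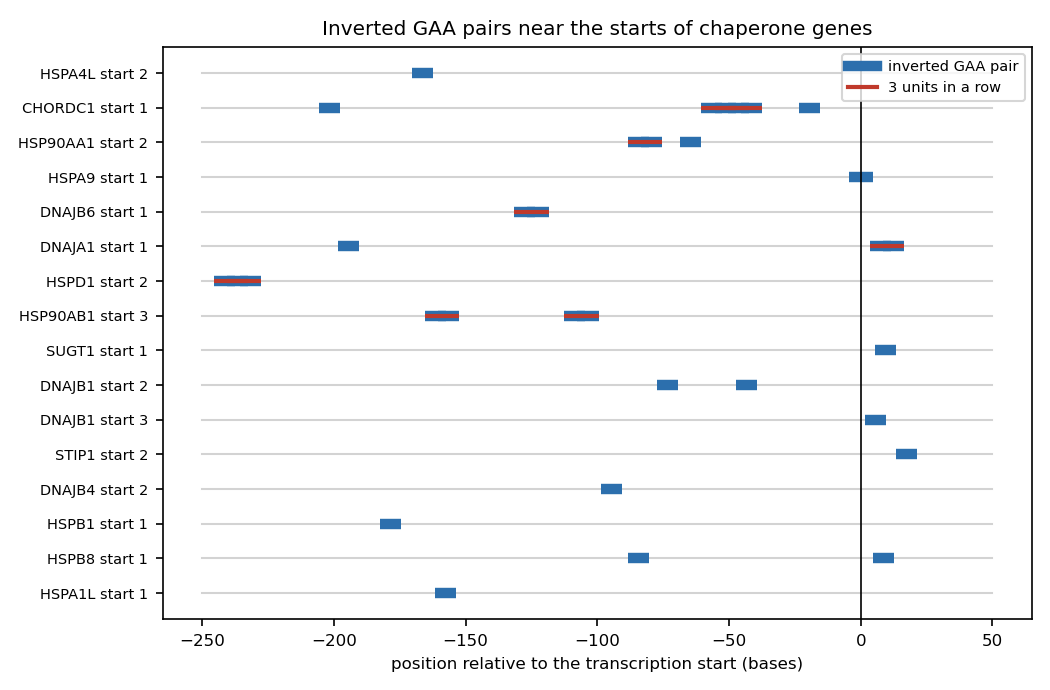
Position of inverted GAA pairs (blue) and of runs of 3 units (red) relative to the annotated transcription start of each window that holds a match, in bases, with genes ordered by their log2 difference in Hep3B. Numbers after a gene name count its annotated starts, and the 6 genes with a run of 3 units are CHORDC1, HSP90AA1, DNAJB6, DNAJA1, HSPD1 and HSP90AB1.

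Among all 35116 promoter windows 13.5% held an inverted GAA pair and 0.49% a run of 3 units. Of the 39 windows of the chaperone genes 16 (41%) held a pair and 6 (15.4%) a run of 3 units. By gene, 15 of 27 had a pair. Their median log2 difference after DAAD2 in Hep3B was 0.30, against 0.32 for the 12 genes without a pair, and 0.41 for the 6 genes with a run of 3 units. In SNU449 the corresponding medians were -0.029, 0.006 and -0.16. HSPH1 and BAG3, with some of the largest differences, were among the 12 genes without a pair.

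In Hep3B, chaperone levels after DAAD2 were mostly above those of the controls. By 1 probe set per gene, that with the highest mean level, the log2 difference was above 0 for 30 of 33 genes and its median was 0.30, where 48.6% of all genes lay above 0 and the median over all genes was -0.007. HSPA4L and HSPH1 of the HSP110 family, the HSP90 co-chaperone CHORDC1, the HSP70 co-chaperone BAG3 and the stress-inducible HSP90AA1 had the largest differences. Of the small heat shock genes, HSPB1 had a level close to that of the controls. So did CRYAB and HSPB8 by their brightest probe sets, but at low mean levels of 4.28 and 4.22 over the 12 arrays. The other HSPB8 probe set gave 0.43. In RNA from whole cultures, a change in the make-up of the cells and one in RNA per cell cannot be told apart. None of these differences passed the test across all probe sets, as 0 of 79 probe sets of the chaperone genes were called at an adjusted p under 0.05 in limma, and 0% of all probe sets were.

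At an unadjusted p under 0.05, 40 of the 79 probe sets were higher, where 9.53% of all probe sets were, and 1 was lower, where 5.47% were. With a fold over 1.5 added to that threshold, 11 were higher and 0 lower, against 1.42% and 0.201% of all probe sets. The 3 DAAD2 arrays lay above all 3 control arrays for 39 probe sets and below them for 1, a probe set of HSPA1L, against 11% and 9.99% of all probe sets. In a fit that took the spread from all 12 arrays, 4 were called higher and 0 lower (0.225% and 0.0568% of all probe sets), namely HSPH1, HSPA4L, HSP90AA1 and BAG3 with 1 probe set each.

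The shift was present on each array. Relative to the mean of the controls, the median over the 33 genes was 0.30, 0.33 and 0.15 on DAAD2 arrays 1, 2 and 3, and -0.015, -0.014 and 0.048 on the control arrays. It was smaller after quantile normalization, at 0.17, and after cyclic loess, at 0.19. Well expressed genes as a whole lay higher on the DAAD2 arrays of this line. The median difference over all genes with a mean level from 7 to 9 was 0.15, against 0.30 for the 14 chaperone genes there, and over all genes from 9 to 11 it was 0.14, against 0.32 for 6 chaperone genes. The part of this general shift in the values of the chaperone genes was not tested.

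**Figure D2:**
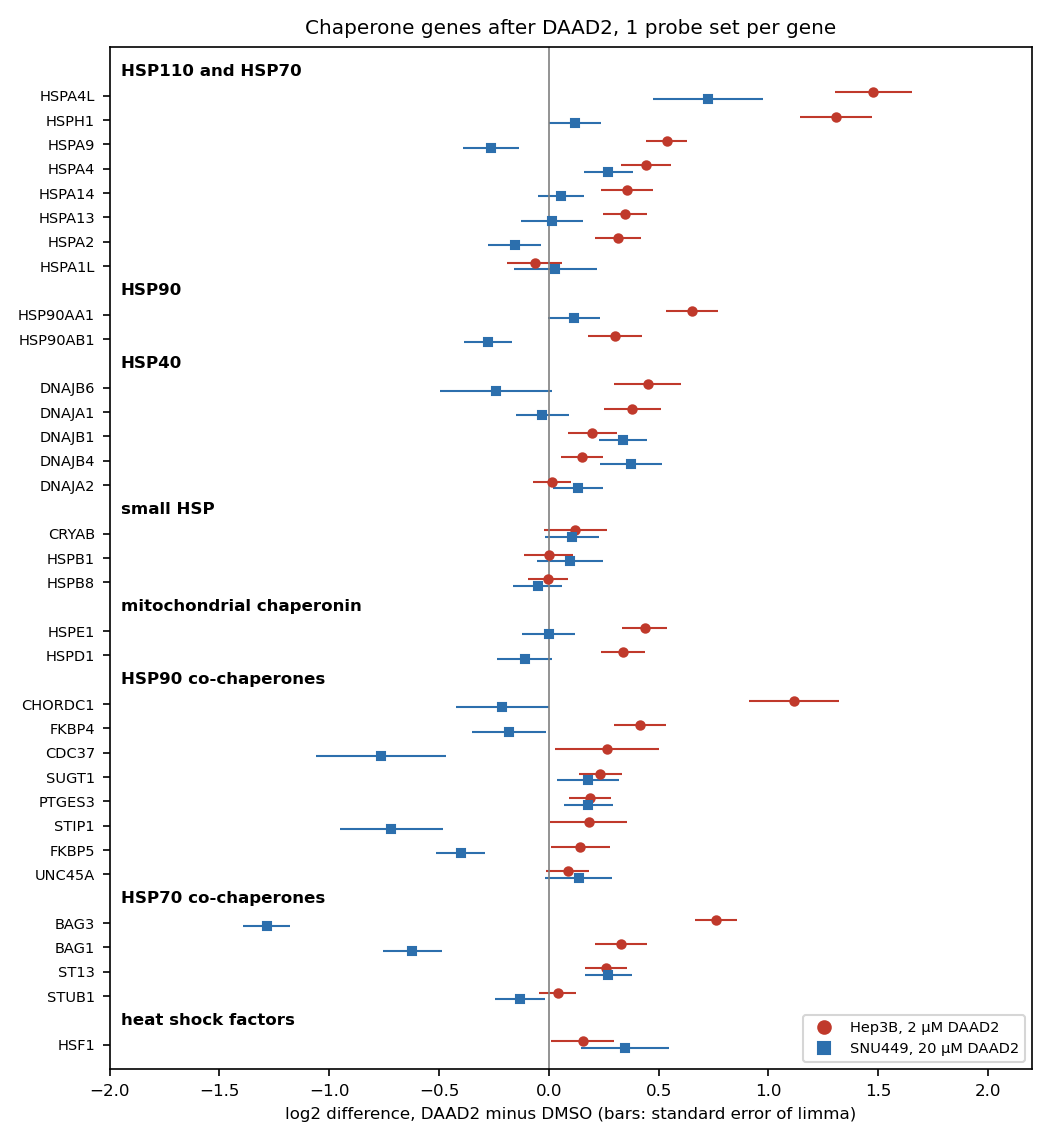
Log2 difference between DAAD2 and DMSO arrays for the 33 chaperone genes, 1 probe set each, grouped by role, in Hep3B (red circles) and SNU449 (blue squares), with the standard error of limma as bars. In Hep3B 30 of 33 points lie to the right of 0, and in SNU449 17 do, with BAG3 farthest to the left at -1.28.

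The HSP110 family gave the widest differences in Hep3B. HSPA4L, an HSP110-type exchange factor of HSP70, was at 4.21, 3.88 and 4.18 on the control arrays and at 5.18, 5.85 and 5.67 on the DAAD2 arrays (205543_at). All DAAD2 arrays lay above all controls, by 1.48 on the log2 scale (standard error 0.18), a fold of 2.78, with an adjusted p of 0.0581 from limma. Its other probe set, 1556194_a_at, gave 0.71 (standard error 0.11, adjusted p = 0.077).

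HSPH1 encodes HSP110 itself, which frees HSP70 from its nucleotide and takes part in dissolving aggregates. It was at 7.39, 7.50 and 7.83 on the control arrays and at 8.93, 9.13 and 8.59 after DAAD2 (206976_s_at), without overlap, a difference of 1.31 (standard error 0.16, adjusted p = 0.0581). The other probe sets of HSPH1 gave 1.06 and 0.87. HSPA4, the third gene of this family, was at 9.38, 9.70 and 9.71 and then at 10.03, 10.08 and 10.0, a difference of 0.44 (208815_x_at, standard error 0.11, adjusted p = 0.136). Its remaining probe sets gave differences of 0.11 to 0.57.

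Among the HSP70 genes, HSPA9 had the largest difference. It encodes mortalin, the HSP70 of the mitochondrial matrix that draws in imported proteins, and was at 10.26, 10.32 and 10.19 in controls against 10.83, 10.85 and 10.71 after DAAD2 (200691_s_at). The groups did not overlap, and the difference was 0.54 (standard error 0.093, adjusted p = 0.083). Of its other 3 probe sets, 2 gave 0.50 and 0.44, and 232200_at, with levels from 2.81 to 3.66 over all 12 arrays, gave -0.19. HSPA14, an HSP70 that works at the ribosome, and HSPA13 both had a difference of 0.35, and HSPA2, known for its role in sperm development, had one of 0.32. HSPA1L was at -0.064 and its second probe set at -0.39.

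Both cytosolic HSP90 genes were higher on average. HSP90AA1, the inducible form, was at 12.10, 12.15 and 12.45 in controls and at 12.91, 12.98 and 12.77 after DAAD2 (214328_s_at), without overlap. The difference of 0.65 (standard error 0.12, fold 1.57) had an adjusted p of 0.089, and the other 3 probe sets gave 0.58, 0.88 and 0.95. HSP90AB1, the constitutive form, was at 10.91, 10.77 and 10.65 and then at 11.19, 11.18 and 10.86 (200064_at), a difference of 0.30 in which array 3 of the treated cells lay within the range of the controls.

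Of the HSP40 genes, which hand clients to HSP70, DNAJB6 had the largest difference by its brightest probe set. DNAJB6, a suppressor of polyglutamine aggregation, was at 7.32, 7.07 and 7.30 in controls and at 7.80, 7.90 and 7.35 after DAAD2 (209015_s_at). The DAAD2 arrays were above the controls, 1 of them by only a little, and the difference was 0.45 (standard error 0.15, adjusted p = 0.224). DNAJA1, which serves cytosolic HSP70, gave 0.38 and 0.39 with its 2 probe sets. Differences were 0.20 for DNAJB1, a partner of HSP70 that also restrains HSF1, 0.15 for DNAJB4 and 0.013 for DNAJA2. DNAJA2 and DNAJB4 each had a second probe set with a larger difference, 0.41 and 0.39.

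Small heat shock proteins hold unfolded proteins without using ATP. HSPB1, the HSP27 gene, was at 11.67, 11.91 and 11.55 in controls and at 11.69, 11.78 and 11.67 after DAAD2, a difference of -0.001 (standard error 0.11). CRYAB gave 0.12, and HSPB8, the partner of BAG3 in removing aggregates, gave -0.002 with one probe set and 0.43 with the other, all at levels under 5. None of the 4 probe sets of this family had groups that did not overlap.

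The mitochondrial chaperonin genes HSPD1 (HSP60) and HSPE1 (HSP10), whose products form the folding chamber of the matrix, differed alike. HSPE1 was at 11.35, 11.38 and 11.42 and then at 11.89, 11.91 and 11.66, a difference of 0.44 (205133_s_at, standard error 0.10, adjusted p = 0.114). HSPD1 gave 0.34 with 200807_s_at and 0.59 with 200806_s_at, in each case without overlap between the groups. Its other 3 probe sets, all with levels under 4.5, gave differences from -0.063 to 0.42.

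HSP90 co-chaperones had a median difference of 0.21 over 8 genes, and all 8 lay above 0. CHORDC1, a zinc-binding partner of HSP90 also called Morgana, stood out from the rest. It was at 7.77, 7.38 and 8.04 in controls and at 8.91, 9.15 and 8.47 after DAAD2 (218566_s_at), a difference of 1.12 (standard error 0.21, fold 2.17, adjusted p = 0.089). FKBP4, an immunophilin of steroid receptor complexes, came next at 0.41. CDC37, which brings kinases to HSP90, gave 0.26, SUGT1 0.23, PTGES3, the p23 protein that closes the HSP90 cycle, 0.19, STIP1, the bridge between HSP70 and HSP90, 0.18, FKBP5 0.14 and UNC45A, a myosin chaperone, 0.085. The second probe set of CHORDC1, 239436_at, gave 0.15, and the other 4 of SUGT1 ranged from -0.019 to 0.28. STIP1 gave -0.20 with 212009_s_at (standard error 0.54). FKBP5 gave 0.48 with 224856_at, without overlap (adjusted p = 0.18 from limma), and -0.11 with 204560_at.

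Of the HSP70 co-chaperones, BAG3 had the largest difference. BAG3 releases clients from HSP70 and directs them to autophagy. It was at 6.57, 6.56 and 6.50 in controls and at 7.40, 7.33 and 7.19 after DAAD2 (217911_s_at), a difference of 0.76 (standard error 0.095, fold 1.69, adjusted p = 0.0581). BAG1 gave 0.33 with its brightest probe set, 202387_at, but -0.008 with 211475_s_at and -0.094 with 229720_at. ST13, which slows the exchange of nucleotide, gave 0.26, and STUB1, the ubiquitin ligase CHIP, 0.040. HSF1, the master regulator of the heat shock response, was at 6.22, 6.58 and 6.62 and then at 6.68, 6.41 and 6.79, a difference of 0.15 with overlapping groups.

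**Figure D3:**
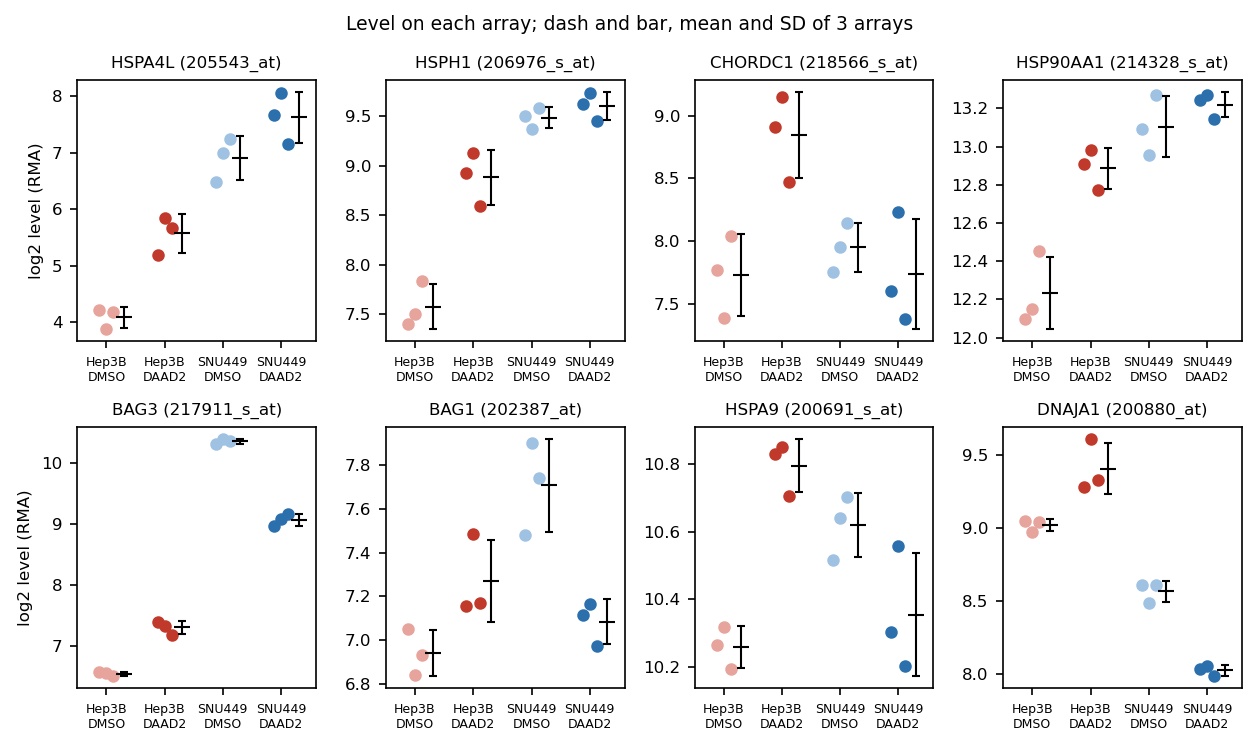
Log2 level on each of the 12 arrays for 8 chaperone probe sets, with the mean and SD of the 3 arrays of a group beside them. In Hep3B (red) the DAAD2 arrays of all 8 lie above the controls. In SNU449 (blue) those of BAG3, BAG1 (202387_at) and DNAJA1 (200880_at) lie below the controls.

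In SNU449, chaperone levels after DAAD2 lay about as often above the controls as below them, and the co-chaperone BAG3 fell. The median log2 difference over the 33 genes was 0.013, against 0.003 over all genes, with 17 genes above 0 and 16 below, where 50.7% of all genes lay above 0. BAG3 fell 2.44-fold, and a probe set of DNAJA1 fell 1.46-fold. Differences above 0 were led by HSPA4L.

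Of the 79 probe sets 0 were called higher and 2 lower in limma, where 1.04% of all probe sets were called higher and 0.417% lower. At an unadjusted p under 0.05, 8 were higher and 18 lower, against 6% and 5.8% of all probe sets. With a fold over 1.5 as well, 2 were higher (both of HSPA4L) and 10 lower, against 1.84% and 1.45%. The DAAD2 arrays lay above all control arrays for 8 probe sets and below them for 12, against 8.34% and 7.76%. By array, the median over the 33 genes relative to the mean of the controls was -0.034, 0.11 and -0.10 with DAAD2 and -0.038, 0.018 and 0.057 in controls. The array with the high GAPDH 3′ signal, replicate 2, thus had the highest of the DAAD2 medians, and the median difference over the genes was -0.044 without it.

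BAG3 stood at 10.31, 10.39 and 10.36 on the SNU449 control arrays and at 8.96, 9.08 and 9.16 after DAAD2 (217911_s_at). All DAAD2 arrays were below all controls, by 1.28 on the log2 scale (standard error 0.11, adjusted p = 0.00217 from limma). Without each array in turn the log2 difference ranged from -1.33 to -1.23, with adjusted p-values from 0.0061 to 0.0263. BAG1, the other nucleotide exchange factor of the BAG family here, was at 7.48, 7.90 and 7.74 and then at 7.12, 7.17 and 6.97 (202387_at), a difference of -0.62 without overlap (standard error 0.13, adjusted p = 0.0683). A second BAG1 probe set, 211475_s_at, gave -0.61 with an adjusted p of 0.0663, and the third, 229720_at, gave -0.13. ST13 was at 0.27 and STUB1 at -0.13.

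DNAJA1 gave unlike values with its 2 probe sets. With 200880_at it was at 8.61, 8.49 and 8.61 in controls and at 8.04, 8.06 and 7.99 after DAAD2, a difference of -0.54 (standard error 0.10, adjusted p = 0.0436). With the brighter 200881_s_at it was at 9.48, 9.61 and 9.37 and then at 9.43, 9.61 and 9.33, a difference of -0.029. The call on 200880_at was lost when any 1 of the 6 arrays was left out (adjusted p from 0.0569 to 0.212). DNAJB4 had a difference of 0.37, with 7.33, 7.57 and 7.68 in controls and 7.85, 8.12 and 7.74 after DAAD2 (203810_at, standard error 0.14, adjusted p = 0.326), and its second probe set gave -0.19. DNAJB1 gave 0.34, DNAJA2 0.13 and DNAJB6 -0.24. The second probe set of DNAJA2, 226994_at, gave 0.44 without overlap (adjusted p = 0.151 from limma), and that of DNAJB1 gave 0.29 with overlap.

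HSPA4L was the chaperone gene with the largest difference above 0 in SNU449. It was at 6.47, 7.0 and 7.23 in controls and at 7.67, 8.05 and 7.15 after DAAD2 (205543_at), with overlap, a difference of 0.72 (standard error 0.25, adjusted p = 0.27). With 1556194_a_at it was at 6.16, 6.60 and 6.67 and then at 7.28, 7.30 and 7.09, without overlap, a difference of 0.75 (standard error 0.15, adjusted p = 0.0563). HSPA4 gave 0.27 without overlap and HSPH1 0.12 with overlap by their brightest probe sets. Of the other HSPA4 probe sets, 211015_s_at gave 0.37 without overlap (adjusted p = 0.248 from limma). Groups overlapped for the rest, with 0.18 for 211016_x_at and -0.69 for 208814_at. The other HSPH1 probe sets gave 0.098 and -0.27, also with overlap. The other HSP70 genes lay between -0.26 (HSPA9) and 0.054 (HSPA14), although 2 dimmer probe sets of HSPA14 gave -0.53 and -0.56.

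HSP90 and its co-chaperones were lower on some probe sets only. HSP90AA1 gave 0.12 and HSP90AB1 -0.28 by their brightest probe sets, and another probe set of HSP90AB1, 1557910_at, was at 8.37, 7.61 and 7.90 in controls and at 7.25, 7.13 and 6.24 after DAAD2, a difference of -1.09 (standard error 0.28, adjusted p = 0.121). STIP1 was at 9.23, 9.09 and 9.0 and then at 8.43, 7.84 and 8.90 (213330_s_at), a difference of -0.72 (standard error 0.23, adjusted p = 0.233) that was -0.44 without replicate 2 of the treated cells, and 212009_s_at gave -1.64 (adjusted p = 0.0648). In both STIP1 probe sets the lowest value was that of replicate 2, the array with the high GAPDH 3′ signal.

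CDC37 was at 6.98, 7.83 and 7.40 in controls and at 6.89, 5.98 and 7.05 after DAAD2 (209953_s_at), a difference of -0.77 (standard error 0.30, adjusted p = 0.339) that was -0.43 without replicate 2 of the treated cells. FKBP5, a glucocorticoid-inducible immunophilin, was at 8.91, 8.84 and 9.06 and then at 8.46, 8.61 and 8.55 (224840_at), a difference of -0.40 without overlap (standard error 0.11, adjusted p = 0.152). By their brightest probe sets CHORDC1 gave -0.21, FKBP4 -0.18, PTGES3 and SUGT1 0.18 each and UNC45A 0.14. The second probe set of CHORDC1 gave 0.10, and the others of FKBP4 gave -0.21, 0.15 and 0.18. Those of SUGT1 gave -0.90 (228045_at), -0.092, -0.011 and 0.19. HSF1 was at 6.98, 7.17 and 7.17 and then at 7.54, 6.97 and 7.84 (202344_at), a difference of 0.35 with overlap (standard error 0.20, adjusted p = 0.594) that was 0.59 without replicate 2 of the treated cells and 0.15 without replicate 3. The small heat shock genes lay between -0.051 and 0.11 by their brightest probe sets, and the other HSPB8 probe set gave 0.20. HSPE1 and HSPD1 were at -0.001 and -0.11.

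**Figure D4:**
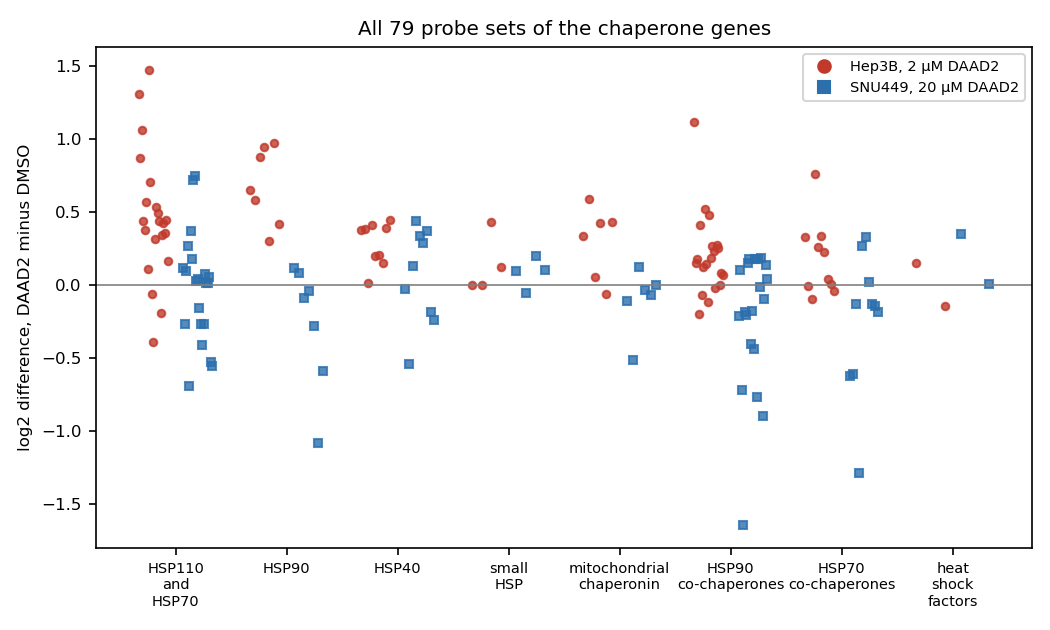
Log2 difference between DAAD2 and DMSO arrays for all 79 probe sets of the chaperone genes by role, in Hep3B (red circles) and SNU449 (blue squares). Probe sets of 1 gene can lie far apart, and in SNU449 the 3 lowest belong to STIP1 (-1.64), BAG3 (-1.28) and HSP90AB1 (-1.09).

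The response of Hep3B to 2 μM DAAD2 was next set against that of SNU449 to 20 μM, to find members whose responses differed. For BAG3, HSPH1, HSPA9, BAG1, DNAJA1, HSPD1 and HSP90AB1 a probe set had a higher log2 difference in Hep3B than in SNU449 by the test of the difference itself. BAG3 was the clearest, higher after DAAD2 in Hep3B and lower in SNU449. Of the 79 probe sets 7 were called for a higher response in Hep3B and 0 for a lower one, where 1.21% and 0.797% of all probe sets were. At an unadjusted p under 0.05, 33 had a higher and 0 a lower response in Hep3B, against 8.05% and 5.97% of all probe sets. Since the doses differ, these are differences between line and dose together.

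For BAG3 the responses differed by 2.05 on the log2 scale (standard error 0.13, adjusted p = 1.52e-05 from limma), and the difference stayed between 1.99 and 2.1 without each array in turn. The levels given above show that its 4 groups did not overlap with each other, from Hep3B controls at 6.50 to 6.57 up to SNU449 controls at 10.31 to 10.39. Even after DAAD2 the level of BAG3 in SNU449 remained above that in Hep3B.

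DNAJA1 (200880_at) was at 9.05, 8.98 and 9.04 in Hep3B controls and at 9.28, 9.61 and 9.33 after DAAD2, while in SNU449 it fell, and the responses differed by 0.93 (standard error 0.14, adjusted p = 0.00762). With its brighter probe set they differed by 0.41 (adjusted p = 0.323). BAG1 (202387_at) was at 7.05, 6.84 and 6.93 in Hep3B controls and at 7.16, 7.48 and 7.17 after DAAD2. Its responses differed by 0.95 (standard error 0.18, adjusted p = 0.0194), and by 0.60 with 211475_s_at (adjusted p = 0.136).

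HSPH1 was at 9.51, 9.38 and 9.58 in SNU449 controls and at 9.62, 9.74 and 9.46 after DAAD2 (206976_s_at), so the groups overlapped there as they did not in Hep3B. The responses differed by 1.19 (standard error 0.21, adjusted p = 0.0146). HSPA9 was at 10.52, 10.64 and 10.70 in SNU449 controls and at 10.30, 10.56 and 10.20 after DAAD2 (200691_s_at), and its responses differed by 0.80 (standard error 0.15, adjusted p = 0.0189). For 2 more HSPA9 probe sets the differences were 0.91 and 0.71, with adjusted p-values of 0.0536 and 0.0538.

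HSPD1 with 200806_s_at was at 10.48, 10.73 and 10.49 in Hep3B controls and at 11.22, 11.36 and 10.89 after DAAD2, and in SNU449 at 10.35, 10.79 and 10.81 and then at 9.90, 10.41 and 10.11. Its responses differed by 1.10 (standard error 0.24, adjusted p = 0.0323), and by 0.45 with the brighter 200807_s_at (adjusted p = 0.19). HSP90AB1 with 1557910_at was at 5.68, 5.25 and 6.70 in Hep3B controls and at 6.51, 6.94 and 7.10 after DAAD2, an overlapping and wide range. Its responses differed by 2.06 (standard error 0.48, adjusted p = 0.0485), and with the other probe sets of HSP90AB1 by 0.58 and 1.01 (adjusted p = 0.0906 and 0.0951). The 2 probe sets of HSPA4L had a higher mean after DAAD2 in both lines, with overlap for 205543_at in SNU449. Their responses differed by 0.75 and -0.039 (adjusted p = 0.341 and 0.953 from limma).

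The number of calls depended on single arrays. Without replicate 2 of DAAD2-treated SNU449, the array with the high GAPDH 3′ signal, 16 probe sets were called. Over all 54613 probe sets, 1602 were then called higher and 719 lower, against 661 and 435 with every array. Only 3 of the chaperone probe sets were called without replicate 2 or 3 of the SNU449 controls or without replicate 2 of DAAD2-treated Hep3B. Without replicate 1 of either DAAD2 group 4 were called. Calls over all probe sets were also fewer there, at 211 to 245 higher and 223 to 258 lower. BAG3 and DNAJA1 (200880_at) kept their calls in each of these, while HSP90AB1 lost its call in most of them.

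Before treatment the lines differed in many chaperones, most of which were lower in Hep3B. BAG3, HSPA4L, HSPA2 and HSPH1 were the farthest below their level in SNU449, and HSPB1, DNAJB1, HSPE1 and DNAJB6 the farthest above it. Of the 79 probe sets 11 were called higher in Hep3B controls and 28 lower, where 14.4% and 14.7% of all probe sets were. By role, 6 of 7 HSP90 probe sets and 10 of 21 of the HSP110 and HSP70 genes were lower in Hep3B. The controls enter the comparisons with DAAD2 as well, so these differences are no independent evidence on the responses.

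The mean log2 level of BAG3 was 6.54 ± 0.04 (SD, n = 3) in untreated Hep3B cells and 10.35 ± 0.04 (SD, n = 3) in untreated SNU449 cells, a 14-fold lower level in Hep3B (adjusted p = 1.13e-12 from limma). HSPA4L (205543_at) was 7-fold lower in Hep3B (log2 difference -2.81, adjusted p = 4.79e-07). HSPA2, at 5.57, 5.44 and 5.70 in Hep3B and 8.07, 7.93 and 7.94 in SNU449 controls, was lower by 2.41 on the log2 scale (log2 difference -2.41, adjusted p = 6e-10). HSPH1 was 3.77-fold lower (log2 difference -1.91, adjusted p = 1.83e-07).

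HSPB1 was at 9.99, 10.26 and 10.04 in SNU449 controls, and so was 3.06-fold higher in Hep3B (log2 difference 1.61, adjusted p = 4.4e-07). DNAJB1 was at 9.26, 9.41 and 9.15 in Hep3B and at 8.32, 8.19 and 8.21 in SNU449 controls, a difference of 1.03 (adjusted p = 2.91e-06). HSPE1 was at 10.71, 10.76 and 10.57 in SNU449 controls, a difference of 0.70 (adjusted p = 0.000158), while HSPD1 differed by 0.023. DNAJB6 was at 6.26, 6.55 and 6.80 in SNU449 controls, a difference of 0.69 (adjusted p = 0.0376) that lost its call without replicate 1 or 2 of the SNU449 controls or without replicate 1 or 3 of the Hep3B controls.

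**Figure D5:**
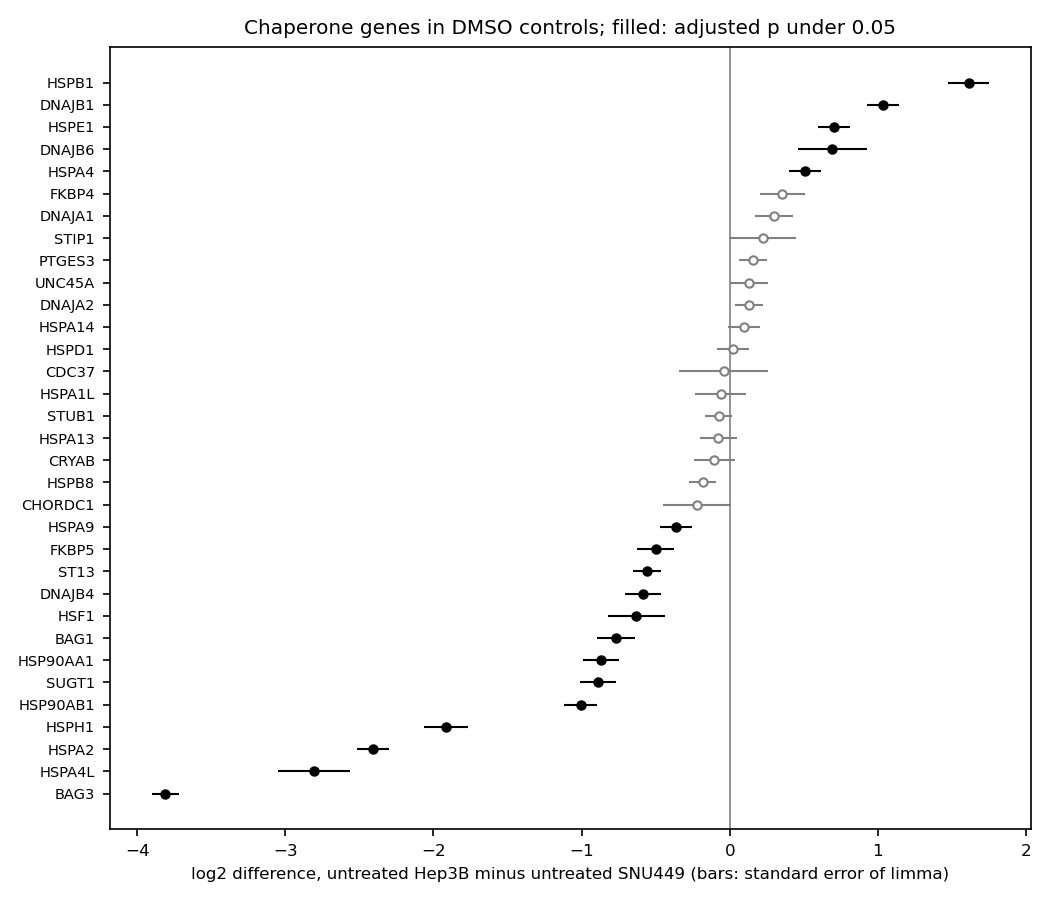
Log2 difference between Hep3B and SNU449 control arrays for the 33 chaperone genes, 1 probe set each, with the standard error of limma as bars and filled points for an adjusted p under 0.05. BAG3 lies lowest at -3.81 and HSPB1 highest at 1.61.

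Other genes of protein folding were read from lists around the chaperones. The CCT chaperonin, which folds actin and tubulin, had all 7 of its measured genes above 0 in Hep3B with a median of 0.33, and 6 of 7 below 0 in SNU449 with a median of -0.070. Of 13 chaperones of the endoplasmic reticulum 11 were above 0 in Hep3B (median 0.21) and 11 below 0 in SNU449 (median -0.28). None of the 12 probe sets of the former or the 32 of the latter was called in either line. At an unadjusted p under 0.05, 8 and 11 of them were higher in Hep3B and none lower, against 9.53% and 5.47% of all probe sets. In SNU449 3 and 11 were lower and 0 and 2 higher, against 5.8% lower and 6% higher of all. By the test between the responses, 2 of the 12 and 3 of the 32 were called for a higher response in Hep3B and none for a lower one, where 1.21% and 0.797% of all probe sets were. A further 45 genes of the HSP40, BAG and small HSP families, HSP90 helpers and other targets of HSF1 had medians of 0.099 in Hep3B and 0.018 in SNU449.

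Of the 94 probe sets of these 45 genes none was called in Hep3B, where 13 were higher and 1 lower at an unadjusted p under 0.05, against 9.53% and 5.47% of all probe sets. In that line DNAJC7, an HSP40 protein that binds HSP90 as well, and BAG2, a cofactor of HSP70, had the largest differences by the brightest probe set of each gene, at 0.50 (adjusted p = 0.276) and 0.49 (adjusted p = 0.161). In SNU449 1 of the 94 probe sets rose and 2 fell, against 1.04% and 0.417% of all probe sets. HMOX1, the stress-inducible heme oxygenase gene, rose from 8.69, 8.61 and 8.62 in controls to 9.51, 9.22 and 9.39, by 0.73 on the log2 scale (standard error 0.12, adjusted p = 0.0233). DNAJC9, a histone-binding HSP40 protein, fell from 9.61, 9.89 and 9.80 to 8.78, 9.07 and 8.89 (213088_s_at, log2 difference -0.85, standard error 0.13, adjusted p = 0.019), and its other probe sets gave -1.15 and -0.032, neither called. DNAJC5, a co-chaperone of synaptic vesicles, fell with 224612_s_at (log2 difference -0.64, adjusted p = 0.0262), and its other probe sets gave -0.41 and -0.24, neither called.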

How the data were processed

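Total RNA for 12 arrays in 4 groups (Hep3B and SNU449, DAAD2 or DMSO, 3 arrays each, from the sample labels) was hybridised to U133 Plus 2.0 arrays. The deposited values are log2 levels per probe set that the authors made with RMA (background correction, normalization between arrays, summary of probes). The paper names BRB Array Tools, and the version of RMA was not given in the sources. All columns were used (0 left out), and the number of arrays limits the precision.

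Apart from 62 control probe sets, 54613 in all were tested without a filter in limma 3.58.1 (R 4.3.3), two-sided, per line, with Benjamini-Hochberg adjustment over all of them. A call is an adjusted p under 0.05. Differences between the responses and between untreated lines came from a fit with 4 group means. With 3 arrays a group, exact permutation gives no p below 0.1 and was not used. Symbols came from the platform annotation (41091 probe sets with 1 symbol, 1801 with several, 11721 with none), and the probe set with the highest mean stood for a gene. Probe sets ending in _s_at or _x_at can take up related transcripts, among them copies of the HSP90 and HSP70 genes.

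Full values are given for members called after DAAD2 or between the responses, for the 8 with the largest difference per line, and for the 4 largest each way between untreated lines. Other pathway genes are named when called after DAAD2, otherwise the 2 largest. HSPA1L and the other probe sets named beside these were chosen after their values were seen, as were the level ranges. Members and lists were chosen with earlier results of these data known. Promoter windows were those of RefSeq, with motifs searched by text. The method was tested on simulated data. Alternatives were a fold threshold, 1 fit over all arrays, centring, removal of dim probe sets, the replicate block, quantile normalization, cyclic loess, other variance models, 1 probe set per gene, RNA integrity as a covariate and each array left out. Tables and figures came from pandas 2.3.3, numpy 2.4.6 and matplotlib 3.10.9 under Python 3.11.15.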

Additional observations from a re-analysis of the deposited data

Results flagged for a closer look

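The responses of the lines to DAAD2 differed by the test of the difference for 7 probe sets, each with the log2 difference in Hep3B minus that in SNU449. This was 2.05 for BAG3 (217911_s_at), which was 0.76 above its controls in Hep3B and 1.28 below them in SNU449 (log2 difference -1.28). It was 2.06 for HSP90AB1 (1557910_at), 1.19 for HSPH1 (206976_s_at) and 1.10 for HSPD1 (200806_s_at). It was 0.95 for BAG1 (202387_at), 0.93 for DNAJA1 (200880_at) and 0.80 for HSPA9 (200691_s_at). Line and dose cannot be told apart in these values.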

How the results depend on the processing

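In Hep3B no probe set of the chaperone genes was called. By a fold over 1.5 with an unadjusted p under 0.05, 11 passed, where 775 of all 54613 probe sets were higher and 110 lower. With all 12 arrays in one fit 4 passed (123 and 31 of all), and after centring of the arrays 3 did (68 and 9). With a trend in the prior variance 9 passed (113 and 24), and with 1 probe set per gene 6 did (178 and 42 of 19775). Whichever array was left out, 0 passed (at most 5 and 1 of all). In SNU449 there were 2 calls, where 570 of all were higher and 228 lower. The 2 became 12 by fold (1006 and 792) and 5 with all arrays in one fit (1163 and 687). They were 4 after quantile normalization (550 and 268) or cyclic loess (562 and 279), and 1 with the arrays centred (510 and 132). With RNA integrity as a covariate 1 was called (555 and 391), and without moderation 0 were (0 and 0). Without each array in turn 1 to 3 were called, where 93 to 595 of all were higher and 11 to 573 lower. The 7 calls between the responses, where 661 of all were higher and 435 lower, became 23 by fold (2470 and 1233). They were 11 without dim probe sets (783 and 471 of 27685) and 12 with a trend (731 and 439). With RNA integrity as a covariate 14 were called (1189 and 657), and without moderation 3 were (164 and 173). Without each array 3 to 16 were called, where 211 to 1602 of all were higher and 223 to 719 lower. Between untreated lines the 39 calls, where 7850 of all were higher and 8052 lower, became 18 with 1 probe set per gene (4367 and 4052). They ranged from 33 to 41 without each array, where 7036 to 8139 of all were higher and 6991 to 8444 lower. The Hep3B median of 0.30 became 0.17 after quantile normalization and 0.19 after cyclic loess, and ranged from 0.25 to 0.34 without each array. That of SNU449 ranged from -0.044 to 0.034. The cause of these changes was not tested. With 1 probe set per gene or without dim ones, fewer probe sets entered the adjustment, and the part of this was not tested either.

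The labels do not say whether replicate numbers pair the samples. Within a line, deviations from the group means of arrays with the same number correlated at -0.27 to 0.09. Such values cannot show whether these arrays were cultured or processed together. With the replicate block 0 probe sets were called in Hep3B, 1 in SNU449, 7 between the responses and 38 between untreated lines. Over all probe sets, those called higher and lower were 0 and 0, 204 and 58, 476 and 336, and 7713 and 7928. No result changed its direction while called. BAG3 kept its call between the responses in all 21 alternatives, and in SNU449 lost it only without moderation. DNAJA1 in SNU449 lost its call in 12 of 16.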
